A study of Arabidopsis thaliana with 11 samples.

Results

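The introns of 9 nuclear genes that encode chloroplast enzymes of the Calvin cycle were examined in chromatin-bound RNAs and mRNA of Arabidopsis. The genes were taken by their loci and not by any measured value. They were GAPA (AT3G26650), GAPB (AT1G42970), PRK (AT1G32060), the plastid FBPase (AT3G54050), SBPase (AT3G55800), PGK1 (AT3G12780), FBA1 (AT2G21330), FBA2 (AT4G38970) and TKL1 (AT3G60750). Together they hold 48 of the 121244 introns and are 9 of the 22121 genes in the deposited tables. All RNA came from 10-day-old seedlings of the ecotype Col-0, for which the labels name no mutation or treatment of the plants. Chromatin was isolated from nuclei by washing with urea, and all libraries were strand-specific. CB-RNA (2 libraries) was chromatin-bound RNA with rRNA removed and polyadenylated RNA kept. RNAf (2 libraries) was the polyadenylated, full-length part of the chromatin-bound RNA, caught with oligo d(T). RNAe (2 libraries), the elongating RNA, had polyadenylated RNA and then rRNA removed. RNAe+RNAf (2 libraries) had rRNA removed alone, so that it is a second preparation of the same kind as CB-RNA. The mRNA group (3 libraries) was polyadenylated cellular mRNA.

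The Calvin cycle fixes CO2 in the chloroplast stroma. Rubisco joins CO2 to a sugar phosphate, a reduction step turns the product into triose phosphates, and the remaining enzymes rebuild the acceptor of CO2. PGK1 and the glyceraldehyde-3-phosphate dehydrogenase subunits GAPA and GAPB carry out the reduction. FBA1 and FBA2 are aldolases, FBPase and SBPase are phosphatases of sugar bisphosphates, TKL1 is a transketolase that moves carbon units between sugars, and PRK makes the acceptor ribulose bisphosphate. Several of these enzymes, among them GAPB, PRK, FBPase and SBPase, are switched on in the light through thioredoxin. The genes are transcribed in the nucleus, their introns are removed there, and the proteins are imported into the chloroplast.

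Splicing was followed by the SS ratio. It is the number of intronic reads over the number of exonic reads beside a splice site, taken at the 5ʹ splice site (5ʹSS) and the 3ʹ splice site (3ʹSS) of each intron, so a low ratio means that few of the RNAs still held the intron. Each table gives 1 pooled set of reads for its group, and the spread between the libraries of a group is therefore unknown. The intervals below are 95% Wilson intervals of the pooled reads. They cover counting error only, and reads amplified by PCR are not independent molecules. Exonic reads beside the 5ʹ splice sites of all introns ranged from 5460195 in RNAe+RNAf to 116244073 in mRNA. All 48 introns had at least 10 exonic reads at both sites in every group. Their median exonic count at the 5ʹSS was 371 in CB-RNA, 1769 in RNAf, 164 in RNAe, 233 in RNAe+RNAf and 34792 in mRNA, so single introns were measured least precisely in RNAe. Over all introns with exonic reads it was 81, 220, 41, 31 and 463 in the same order of groups. Intervals and tests on reads separate groups more readily at higher depth. The part of depth in the shares they called was not tested. Markers of green tissue (RCA and CAO) and of root (SCR and EXPA7) were counted in every group. Per 1000000 exonic reads counted, CAO had 710.0 in CB-RNA, 345.0 in RNAf, 603.0 in RNAe, 99.7 in RNAe+RNAf and 546.0 in mRNA, so that RNAe+RNAf stood apart in this gene. RCA had 548.0 in CB-RNA, 1060 in RNAf, 488.0 in RNAe, 525.0 in RNAe+RNAf and 12000 in mRNA. In the same order of groups, SCR had 1.38, 5.81, 2.05, 1.43 and 6.99, and EXPA7 6.01, 5.29, 6.03, 4.21 and 6.31. The root markers rest on few reads, for example 16 for SCR in RNAe+RNAf. The part of the low CAO level in the comparisons with RNAe+RNAf was not tested. The seedlings are mixtures of cells, in which fewer cells of a type and less RNA per cell cannot be told apart. PGK1 and GAPA each have a close copy (PGK2, GAPA2), and FBA1 and FBA2 are copies of each other. Reads with more than 1 alignment were not kept, and how this touches the counts of these genes was not tested.

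The introns were short, with a median length of 89 bp (69 to 268 bp) against 99 bp over all introns. All 48 lie between coding exons. The sequences of 8 of them are printed here from the RefSeq genome (TAIR10.1), because they held the extreme ratios in RNAf or the rarer GC start. Each is given 5ʹ to 3ʹ on the strand of the gene with 3 exon bases at either end. Capitals mark the last 3 exon bases with the first 6 intron bases, and the last 3 intron bases with the first base of the next exon. The first set had the highest ratios of the 48 introns in RNAf, by the mean of both sites.
TKL1 intron 2 (chr3:22454729-22454831, plus strand): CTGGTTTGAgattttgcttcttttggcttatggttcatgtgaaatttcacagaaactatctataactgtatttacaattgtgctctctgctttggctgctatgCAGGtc
FBPase intron 1 (chr3:20017398-20017522, plus strand): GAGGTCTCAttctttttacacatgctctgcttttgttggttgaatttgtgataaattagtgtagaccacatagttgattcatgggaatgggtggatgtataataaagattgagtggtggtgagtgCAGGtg
SBPase intron 6 (chr3:20710907-20710985, plus strand): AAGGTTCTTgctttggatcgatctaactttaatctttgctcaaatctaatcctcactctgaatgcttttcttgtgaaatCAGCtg
The next set had the lowest ratios in RNAf.
GAPB intron 4 (chr1:16128321-16128411, plus strand): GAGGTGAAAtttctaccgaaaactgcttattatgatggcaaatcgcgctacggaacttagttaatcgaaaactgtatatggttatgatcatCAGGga
GAPB intron 1 (chr1:16127654-16127743, plus strand): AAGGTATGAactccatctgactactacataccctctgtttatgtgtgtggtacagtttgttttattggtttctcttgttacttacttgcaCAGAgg
PGK1 intron 2 (chr3:4062479-4062565, minus strand): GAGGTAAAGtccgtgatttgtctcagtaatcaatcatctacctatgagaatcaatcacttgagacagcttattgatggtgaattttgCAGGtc
The last pair begins with GC in place of GT, and the 9 capitals at its 5ʹ end are the same in both genes.
FBA1 intron 5 (chr2:9128695-9128776, minus strand): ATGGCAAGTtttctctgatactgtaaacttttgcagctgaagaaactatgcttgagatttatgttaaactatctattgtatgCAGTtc
FBA2 intron 6 (chr4:18163993-18164130, minus strand): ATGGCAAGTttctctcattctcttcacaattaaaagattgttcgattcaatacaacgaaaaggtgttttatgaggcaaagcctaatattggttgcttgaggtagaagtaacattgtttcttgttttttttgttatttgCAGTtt

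The introns of the Calvin cycle genes had lower ratios than the median intron in every group. At the 5ʹSS, their median was 0.176 in CB-RNA, 0.0325 in RNAf, 0.0886 in RNAe, 0.186 in RNAe+RNAf and 0.00284 in mRNA. Over all introns it was 0.284, 0.0455, 0.308, 0.258 and 0.00639 in the same order of groups. The gap was widest in RNAe, where 41 of the 48 introns lay below the median of all introns at the 5ʹSS and 43 at the 3ʹSS. In CB-RNA 36 and 35 lay below it, in RNAf 33 and 31, in RNAe+RNAf 34 and 32, and in mRNA 37 and 39. At the 3ʹSS the median was 0.192 in CB-RNA, 0.0406 in RNAf, 0.118 in RNAe, 0.216 in RNAe+RNAf and 0.00322 in mRNA.

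Reads were summed over the introns of each gene before its ratio was taken, and the genes were put in order by the 5ʹSS ratio. Few neighbours in that order lay apart by more than their intervals. These were FBPase over PRK and TKL1 over FBA1 in CB-RNA, TKL1 over GAPB, FBA1 over GAPA and PRK over PGK1 in RNAf, FBPase over SBPase in RNAe, and SBPase over GAPB and PRK over FBA2 in mRNA. In RNAe+RNAf all neighbours overlapped. FBPase, which removes a phosphate from fructose bisphosphate, had the highest 5ʹSS ratio in CB-RNA, 0.452 (0.399 to 0.511). It also had the highest in RNAe, 0.356 (0.288 to 0.442), while it was 0.0759 (0.0677 to 0.0851) in RNAf, 0.269 (0.216 to 0.334) in RNAe+RNAf and 0.00414 (0.00357 to 0.00481) in mRNA.

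SBPase, the phosphatase of sedoheptulose bisphosphate, had the highest 5ʹSS ratios in RNAf, 0.0848 (0.0788 to 0.0912), and in RNAe+RNAf, 0.299 (0.272 to 0.327). Its ratio was 0.242 (0.222 to 0.264) in CB-RNA, 0.217 (0.186 to 0.254) in RNAe and 0.00635 (0.00599 to 0.00672) in mRNA. With these phosphatases, PRK made up the top 3 at the 5ʹSS in CB-RNA, RNAe and RNAe+RNAf, but not in RNAf and mRNA. In CB-RNA TKL1 tied with SBPase at 0.242. At the 3ʹSS PRK had rank 4 in CB-RNA and in RNAe+RNAf. At the 5ʹSS the values of PRK were as follows. It had 0.262 (0.239 to 0.288) in CB-RNA, 0.0398 (0.036 to 0.0439) in RNAf, 0.195 (0.167 to 0.229) in RNAe, 0.241 (0.208 to 0.279) in RNAe+RNAf and 0.00319 (0.00292 to 0.0035) in mRNA. TKL1 had 0.242 (0.225 to 0.26) in CB-RNA, 0.0631 (0.0582 to 0.0685) in RNAf, 0.166 (0.147 to 0.187) in RNAe, 0.15 (0.134 to 0.168) in RNAe+RNAf and 0.00243 (0.00218 to 0.00271) in mRNA. It thus stood above 6 of the genes in RNAf but above 1 in mRNA.

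The subunits of the dehydrogenase lay in the middle or lower part of the order in CB-RNA, RNAe and RNAe+RNAf. GAPB had the lowest 5ʹSS ratio in CB-RNA, 0.116 (0.108 to 0.124), in RNAe, 0.0615 (0.053 to 0.0713), and in RNAe+RNAf, 0.132 (0.123 to 0.142), but stood above 5 of the genes in RNAf, 0.0516 (0.048 to 0.0556), and above 6 in mRNA, 0.00462 (0.0044 to 0.00486). GAPA had 0.154 (0.141 to 0.168) in CB-RNA, 0.0399 (0.0366 to 0.0434) in RNAf, 0.0879 (0.0738 to 0.105) in RNAe, 0.181 (0.161 to 0.203) in RNAe+RNAf and 0.00362 (0.00341 to 0.00384) in mRNA. PGK1, the kinase that precedes them in the cycle, had 0.134 (0.115 to 0.157) in CB-RNA, 0.0241 (0.0207 to 0.028) in RNAf, 0.128 (0.102 to 0.159) in RNAe, 0.135 (0.116 to 0.157) in RNAe+RNAf and 0.00188 (0.00159 to 0.00221) in mRNA. The PGK1 value in mRNA was the lowest of the 9 genes.

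The aldolases FBA1 and FBA2 are alike in sequence and lay apart in ratio. FBA1 had 0.169 (0.148 to 0.192) in CB-RNA, 0.0504 (0.0456 to 0.0558) in RNAf, 0.0873 (0.0657 to 0.116) in RNAe, 0.211 (0.176 to 0.253) in RNAe+RNAf and 0.00656 (0.00628 to 0.00685) in mRNA, the highest of the genes there. FBA2 had 0.126 (0.115 to 0.138) in CB-RNA, 0.0186 (0.0167 to 0.0207) in RNAf, the lowest there, 0.0674 (0.0563 to 0.0806) in RNAe, 0.158 (0.141 to 0.177) in RNAe+RNAf and 0.0025 (0.00236 to 0.00264) in mRNA. The intervals of the pair did not overlap in CB-RNA, RNAf and mRNA and did so in RNAe, and in RNAe+RNAf they met only at 0.176 to 0.177.

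**Figure D1:**
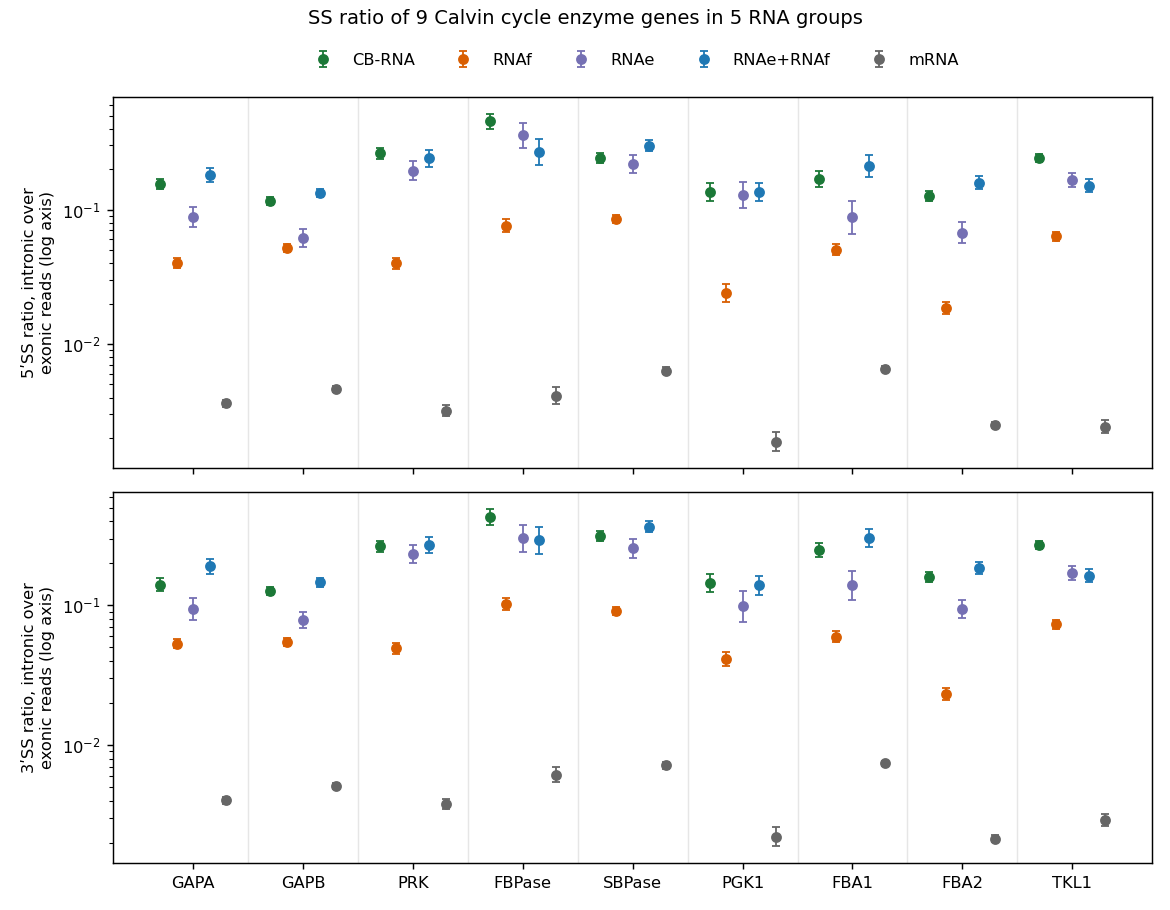
SS ratio of each gene at the 5ʹSS and the 3ʹSS (log scale, reads summed over the introns of the gene) in CB-RNA, RNAf, RNAe, RNAe+RNAf and mRNA. Bars are 95% Wilson intervals of the pooled reads, and FBPase stands highest in CB-RNA while the mRNA values of all 9 genes lie below 0.008.

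Whether the introns were still present on chromatin and gone from mature RNA was asked by setting CB-RNA against mRNA. A difference was called where the ratio, with 0.5 reads added to both counts, differed at least 2-fold. All 48 introns were higher in CB-RNA at both splice sites. This is close to the background, since 95.7% of all introns tested were called at the 5ʹSS and 96.0% at the 3ʹSS. The median log2 fold was 5.86 against 4.90 over all introns at the 5ʹSS and 5.77 against 4.88 at the 3ʹSS. The other genes of the cycle had 5.77 and 5.75, and the cytosolic counterparts of the enzymes 6.12 and 6.46, so both lists were above all introns too. With reads summed per gene, FBPase was 109.0-fold and TKL1 99.7-fold higher in CB-RNA at the 5ʹSS, and GAPB, the lowest, 25.1-fold. A two-sided Fisher's exact test on the reads, with Benjamini-Hochberg adjustment over all introns, compares these pooled libraries and not the conditions. It called 48 introns at the 5ʹSS (91.2% of all introns) and 47 at the 3ʹSS (92.9%). The one not called was PGK1 intron 2, with 1 read in the intron and 122 in the exon in CB-RNA (ratio 0.0082, 0.00144 to 0.0467), against 5 and 14043 in mRNA (ratio 0.000356).

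RNAf and mRNA are both polyadenylated, so this pair asks whether introns remained in RNA that already had a poly(A) tail but was still on chromatin. All 48 introns were higher in RNAf at both sites, where 79.4% of all introns were called higher at the 5ʹSS and 81.8% at the 3ʹSS. The median log2 fold of the introns was 3.49 against 2.40 over all introns at the 5ʹSS, and 3.73 against 2.53 at the 3ʹSS. Fisher's exact test called all 48 at each site, where it called 58.0% and 63.7% of all introns. The 48 introns were read more deeply. Their median 5ʹSS exonic count was 1769 in RNAf and 34792 in mRNA, against 220 and 463 over all introns. The part of depth in these Fisher calls was not tested. The other genes of the cycle had 37 of 38 introns higher in RNAf at each site, with median log2 folds of 3.93 and 3.97. The cytosolic counterparts had 50 and 53 of 55, with medians of 3.65 and 3.84. Both lists thus had larger medians than the 9 genes.

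TKL1 was the gene with the largest difference. Its 5ʹSS ratio was 26.0-fold and its 3ʹSS ratio 25.1-fold higher in RNAf than in mRNA. Of its introns, intron 2, shown above, had the most intronic reads in RNAf. It had 303 intronic and 983 exonic reads at the 5ʹSS in RNAf (ratio 0.308, 0.271 to 0.351), against 132 and 20225 in mRNA (ratio 0.00653, 0.0055 to 0.00774). This was a 47.1-fold difference (adjusted p = 1.10e-273, Fisher's exact test). In the same gene, intron 1 had 11 intronic and 744 exonic reads in RNAf (ratio 0.0148) and 14 and 18693 in mRNA (ratio 0.000749). That intron was 19.9-fold higher in RNAf at the 5ʹSS and 82.4-fold at the 3ʹSS, where it had 0.0426 (0.0301 to 0.0602) in RNAf and 0.000497 (0.000261 to 0.000944) in mRNA. Its fold at the 3ʹSS rests on 9 intronic reads in mRNA. RefSeq also has a TKL1 transcript in which this intron ends 3 bp further on. The part of that transcript in the 3ʹSS counts was not tested.

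FBPase intron 1 and SBPase intron 6 followed TKL1 intron 2 in RNAf. FBPase intron 1 had a 5ʹSS ratio of 0.222 (0.192 to 0.257) in RNAf and 0.00867 (0.00726 to 0.0104) in mRNA, and its 3ʹSS ratio was 0.28 in RNAf and 0.0123 in mRNA. The other FBPase introns were lower, with 5ʹSS ratios in RNAf of 0.0509 at intron 2 and 0.012 at intron 3. SBPase intron 6 had a 5ʹSS ratio of 0.191 (0.169 to 0.214) in RNAf and 0.0138 (0.0124 to 0.0153) in mRNA. The introns on either side of it in SBPase had 0.101 (intron 5) and 0.0327 (intron 7) in RNAf.

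At the other end, GAPB introns 4 and 1 and PGK1 intron 2 had few intronic reads in RNAf. GAPB intron 4 had 5 intronic and 1637 exonic reads at the 5ʹSS in RNAf (ratio 0.00305, 0.0013 to 0.00716), against 36 and 40961 in mRNA (ratio 0.000879). GAPB intron 1 had 5 and 898 in RNAf (ratio 0.00557, 0.00237 to 0.0131), against 8 and 40570 in mRNA (ratio 0.000197). PGK1 intron 2 had 3 and 920 in RNAf (ratio 0.00326, 0.00111 to 0.0096), against 8 and 15132 in mRNA (ratio 0.000529). Within GAPB the range was wide, since its last intron, intron 8, had a 5ʹSS ratio of 0.115 (0.103 to 0.127) in RNAf and 0.0171 (0.0159 to 0.0185) in mRNA, the highest of the 48 introns in mRNA. FBA1 and FBA2 had the smallest differences at the 5ʹSS, 7.67-fold and 7.46-fold, and FBA1 the smallest at the 3ʹSS, 8.06-fold. Across the 48 introns the order in RNAf resembled that in mRNA (Spearman's rho 0.86 at the 5ʹSS and 0.84 at the 3ʹSS), more than that in RNAe (0.42 and 0.49). These are descriptions, and introns of a gene share their reads and library.

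**Figure D2:**
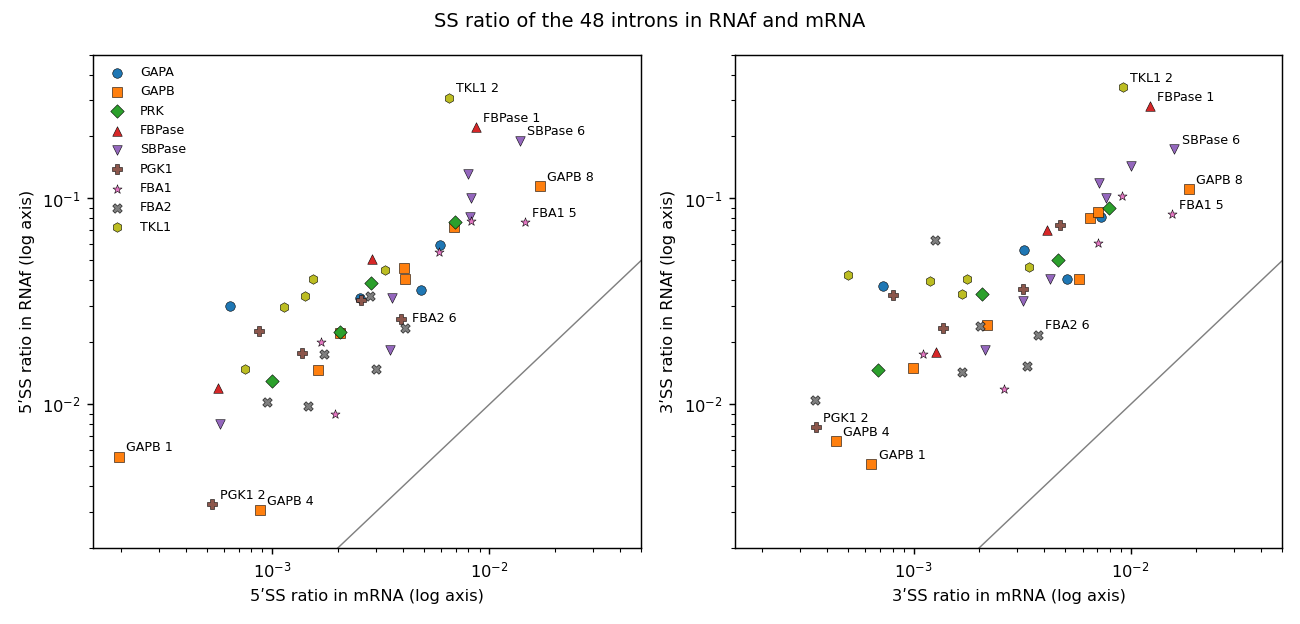
SS ratio of each of the 48 introns in RNAf (vertical axis, log scale) against mRNA (horizontal axis, log scale), for the 5ʹSS and the 3ʹSS, with the line of equal values. All points lie above the line, with TKL1 intron 2 highest in RNAf (0.308 at the 5ʹSS) and GAPB introns 1 and 4 among the lowest.

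In the remaining genes the introns also differed from each other in RNAf. GAPA had its highest 5ʹSS ratio in RNAf at intron 3, 0.0593 (0.0513 to 0.0686), against 0.00589 (0.00538 to 0.00646) in mRNA, and its lowest at intron 1, 0.03 (0.0233 to 0.0387), against 0.000637 (0.000464 to 0.000874) in mRNA. PRK had its highest at intron 3, 0.0766 (0.0658 to 0.0892), against 0.00696 (0.00612 to 0.00791) in mRNA, and its lowest at intron 1, 0.0129 (0.00857 to 0.0194), against 0.001 (0.000715 to 0.0014) in mRNA. The spread within PRK was thus wider than within GAPA. In SBPase intron 1 was lowest in RNAf, with 8 intronic and 1003 exonic reads (ratio 0.00798, 0.00403 to 0.0158), against 18 and 31470 in mRNA (ratio 0.000572). PGK1 intron 4 was the highest of its gene by the mean of both sites, with a 5ʹSS ratio of 0.026 (0.0193 to 0.035) in RNAf and 0.0039 (0.00303 to 0.00501) in mRNA, and a 3ʹSS ratio of 0.0744 (0.0628 to 0.0882) in RNAf and 0.00475 (0.00378 to 0.00597) in mRNA. Among the aldolases, FBA1 ranged in RNAf from 0.00895 (0.00522 to 0.0153) at intron 3 to 0.0775 (0.0639 to 0.0941) at intron 2, and FBA2 from 0.0102 (0.00668 to 0.0157) at intron 2 to 0.0336 (0.0266 to 0.0424) at intron 1. No single place along the gene thus held the highest ratio in RNAf.

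The extremes in the other groups were partly other introns. They are given here by the mean of both sites, with the 5ʹSS ratio printed. In CB-RNA the highest were TKL1 intron 2 (0.58), FBPase intron 1 (0.6, 0.502 to 0.717) and TKL1 intron 1 (0.5, 0.406 to 0.616), and the lowest PGK1 intron 2 (0.0236, 3 intronic reads, 0.00794 to 0.0703), GAPB intron 3 (0.0653, 0.0469 to 0.0909) and SBPase intron 1 (0.0328, 0.0213 to 0.0504). In RNAe FBPase intron 3 was highest, with 29 intronic and 67 exonic reads at the 5ʹSS (ratio 0.433, 0.281 to 0.667). The same intron had 0.012 (0.00781 to 0.0183) in RNAf and 0.000561 (0.000272 to 0.00116) in mRNA, so that it was among the highest introns in RNAe and among the low ones in both polyadenylated groups. TKL1 intron 1 was highest of all in RNAe+RNAf (0.651, 0.484 to 0.877) and among the lowest in mRNA, with GAPB intron 1 (0.000197, 9.99e-05 to 0.000389) and PGK1 intron 2. In RNAf its 5ʹSS ratio, 0.0148, lay below the median of the 48 introns (0.0325). Its 3ʹSS ratio there, 0.0426, lay slightly above the median (0.0406). GAPB intron 5 was the lowest in RNAe, with 12 intronic and 629 exonic reads at the 5ʹSS (ratio 0.0191, 0.0109 to 0.0335), against 0.0387 (0.0291 to 0.0514) in RNAe+RNAf. SBPase intron 6 was among the highest in RNAf, RNAe, RNAe+RNAf and mRNA, with 5ʹSS ratios of 0.409 (0.281 to 0.595) in RNAe and 0.52 (0.417 to 0.648) in RNAe+RNAf.

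RNAf was next set against RNAe, the chromatin-bound RNA without poly(A). The introns were mostly lower in RNAf, but by less than introns in general. At the 5ʹSS 33 of 48 were called lower, against 78.2% of all introns, and at the 3ʹSS 34 of 48, against 77.8%. No intron was called higher at the 5ʹSS (2.24% of all introns), although 2 had a fold above 1, and 1 was called at the 3ʹSS (1.39%). By Fisher's exact test 31 were lower at the 5ʹSS (68.1% of all introns) and 34 at the 3ʹSS (69.5%), and 0 were higher at either (0.848% and 0.427%). The median log2 fold was -1.52 against -2.48 over all introns at the 5ʹSS, and -1.59 against -2.32 at the 3ʹSS. The single call of a higher value, SBPase intron 7 at the 3ʹSS, rests on 0 intronic beside 49 exonic reads in RNAe. That count allows a ratio of up to 0.0784, and RNAf had 0.0407 (0.0326 to 0.0508), so no fold is given.

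Per gene, PRK had a ratio in RNAf that was far below RNAe at both sites. Its fold of summed reads was 0.203 at the 5ʹSS and 0.21 at the 3ʹSS, close to the median fold over all introns (0.18 and 0.2). FBA2 was also low at both sites, with 0.275 and 0.247. The sites differed for PGK1, with a fold of 0.188 at the 5ʹSS and 0.415 at the 3ʹSS, and for FBPase, with 0.213 and 0.339. PGK1 intron 1 had 0.0228 in RNAf and 0.232 in RNAe at the 5ʹSS, and 0.034 in RNAf and 0.013 in RNAe at the 3ʹSS, where the log2 interval of the fold was -1.55 to 3.22. TKL1 intron 1 was among the introns furthest apart, with 0.0148 (0.00822 to 0.0266) in RNAf and 0.486 (0.349 to 0.676) in RNAe at the 5ʹSS. PRK intron 2 had 0.0225 (0.0167 to 0.0303) in RNAf and 0.38 (0.303 to 0.477) in RNAe. With summed reads GAPB was closest to equal, with a fold of 0.841 at the 5ʹSS and 0.697 at the 3ʹSS, but its introns take different shares of the reads in the pair of groups. Taken one by one, the GAPB introns had a median log2 fold of -0.86 at the 5ʹSS, between -4.01 at intron 4 and -0.21 at intron 8. The introns with the highest ratios in RNAf did not all differ from RNAe in the same way. TKL1 intron 2 had 0.308 in RNAf and 0.329 (0.238 to 0.455) in RNAe at the 5ʹSS (fold 0.932, log2 interval -0.61 to 0.40), and 0.348 in RNAf and 0.322 in RNAe at the 3ʹSS. FBPase intron 1 was lower in RNAf at the 5ʹSS, with 0.222 in RNAf and 0.381 (0.276 to 0.525) in RNAe (fold 0.582, adjusted p = 6.42e-03, Fisher's exact test), but had a 3ʹSS ratio of 0.28 (0.247 to 0.318) in RNAf and 0.289 (0.209 to 0.401) in RNAe. SBPase intron 6 was lower in RNAf at both sites, with folds of 0.463 (adjusted p = 7.97e-04) and 0.443 (adjusted p = 1.18e-03, Fisher's exact test).

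RNAe was then set against RNAe+RNAf, from which polyadenylated RNA had not been taken out. These are separate libraries, so the removal cannot be told apart from other differences between them. The median 5ʹSS ratio of the 48 introns was 0.0325 in RNAf, 0.0886 in RNAe and 0.186 in RNAe+RNAf. RNAe+RNAf thus lay above both of the parts it should hold, and why was not tested. The Calvin cycle introns were lower in RNAe, while introns in general were slightly higher. Their median log2 fold was -0.61 at the 5ʹSS and -0.58 at the 3ʹSS, against 0.15 over all introns at each, and 35 and 38 of the 48 were below 0. At the 5ʹSS 12 were called lower (9.84% of all introns tested) and 3 higher (18.6%). At the 3ʹSS 13 were called lower (8.66%) and 0 higher (16.9%). The intervals of the 2 groups lay apart with RNAe lower for 11 and 12 introns (1.24% and 1.05% of all introns), and with RNAe higher for 1 and 1 (3.11% and 2.99%). Fisher's exact test called 6 lower at each site (0.337% and 0.275%), and 1 higher at each (0.853% and 0.711%), TKL1 intron 6. Both the interval and the Fisher calls depend on depth. The median 5ʹSS exonic count was 164 for the 48 introns and 41 for all introns in RNAe, and 233 and 31 in RNAe+RNAf.

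The lowest folds were those of the aldolases and the dehydrogenase subunits. With summed reads, the 5ʹSS fold of RNAe over RNAe+RNAf was 0.415 for FBA1, 0.426 for FBA2, 0.467 for GAPB and 0.486 for GAPA, and the 3ʹSS folds of these genes were 0.46, 0.511, 0.536 and 0.497. All introns of GAPA, GAPB and FBA1 had a fold below 1 at the 5ʹSS. Of the 13 calls at the 3ʹSS, SBPase intron 7 rests on 0 intronic reads in RNAe, with 0.0551 (0.0262 to 0.116) in RNAe+RNAf, and has no fold. GAPB intron 6 had 67 intronic and 778 exonic reads in RNAe (ratio 0.0861, 0.0671 to 0.11), against 350 and 1672 in RNAe+RNAf (ratio 0.209, 0.187 to 0.235), a fold of 0.414 (adjusted p = 6.37e-08, Fisher's exact test). FBA2 intron 5 had 0.0884 (0.0653 to 0.12) in RNAe and 0.236 (0.199 to 0.28) in RNAe+RNAf (adjusted p = 2.00e-05, Fisher's exact test). FBA1 intron 5 had a 3ʹSS ratio of 0.0977 (0.0655 to 0.146) in RNAe and 0.351 (0.287 to 0.43) in RNAe+RNAf (adjusted p = 4.56e-06, Fisher's exact test).

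The remaining genes differed less. The 5ʹSS fold was 0.727 for SBPase, 0.812 for PRK, 0.946 for PGK1, 1.1 for TKL1 and 1.33 for FBPase, and at the 3ʹSS the folds ran between 0.702 (SBPase) and 1.06 (TKL1). TKL1 intron 6 ran the other way, with 0.177 (0.145 to 0.216) in RNAe and 0.083 (0.0644 to 0.107) in RNAe+RNAf at the 5ʹSS (adjusted p = 2.86e-03, Fisher's exact test). SBPase intron 1, also called higher at the 5ʹSS, had 7 intronic and 155 exonic reads in RNAe against 4 and 410 in RNAe+RNAf, and its adjusted p was 2.38e-01 in Fisher's exact test. PGK1 intron 4 had 8 and 145 in RNAe against 7 and 268 in RNAe+RNAf. The cytosolic counterparts lay nearer to introns in general, with median log2 folds of 0.12 and 0.25 against 0.15 over all introns at each site. Among them 0 introns were lower at either site (9.84% and 8.66% of all introns), and 4 of 52 and 6 of 53 were higher (18.6% and 16.9%). By Fisher's exact test 0 were lower (0.337% and 0.275%) and 3 and 4 higher (0.853% and 0.711%). Of the other genes of the cycle 8 of 35 were lower and 3 higher at the 5ʹSS, and 5 and 3 of 34 at the 3ʹSS. Fisher's exact test called 0 of these. Depth limits that count, since the exonic reads per gene in RNAe ran from 79 (FBPase2) to 2057 (RPE).

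RNAe was also set against CB-RNA, the second preparation that kept polyadenylated RNA, a comparison added after the values were seen. RNAe+RNAf and CB-RNA are different libraries, but RNAe stands in both comparisons. With summed reads all 9 genes were lower in RNAe at both sites, and the 5ʹSS fold was 0.521 for FBA1, 0.532 for GAPB, 0.536 for FBA2 and 0.572 for GAPA. It was 0.686 for TKL1, 0.747 for PRK, 0.791 for FBPase, 0.899 for SBPase and 0.955 for PGK1. The same 4 genes thus had the lowest folds at this site. At the 3ʹSS they did not, since the fold was 0.56 for FBA1, 0.588 for FBA2, 0.623 for GAPB, 0.629 for TKL1 and 0.672 for GAPA. Of the 48 introns 9 were called lower (10.2% of all introns) and 1 higher (13.8%) at the 5ʹSS, and 12 lower (8.50%) and 1 higher (12.4%) at the 3ʹSS. The median log2 fold was -0.63 against 0.10 over all introns at the 5ʹSS and -0.54 against 0.12 at the 3ʹSS.

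CB-RNA and RNAe+RNAf were made in the same way, and their comparison shows how far separate preparations lay apart. The median log2 fold of CB-RNA over RNAe+RNAf was -0.08 against 0.05 over all introns at the 5ʹSS, and 0.07 against 0.04 at the 3ʹSS. At the 5ʹSS 4 introns were called higher (16.3% of all introns) and 3 lower (11.2%), and at the 3ʹSS 2 higher (14.0%) and 4 lower (9.64%). Single genes still differed. TKL1 was 1.61-fold higher in CB-RNA at the 5ʹSS and 1.67-fold at the 3ʹSS, and FBPase 1.67-fold and 1.46-fold. GAPA intron 1 was lower in CB-RNA, with 27 intronic and 388 exonic reads (ratio 0.0696, 0.0472 to 0.103), against 47 and 205 in RNAe+RNAf (ratio 0.229, 0.167 to 0.314, adjusted p = 8.63e-04, Fisher's exact test). RNAe, with 0.082 (0.0487 to 0.138), lay with CB-RNA at this intron. Across the 48 introns, the order of the 5ʹSS ratios in CB-RNA resembled that in RNAe+RNAf (rho 0.85) and in RNAe (0.86).

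Intron order was examined in the study, and the last intron was set against the first within each gene. In RNAe the last intron had the higher 5ʹSS ratio in 5 of the 9 genes, against 61.5% of 11213 genes with at least 3 introns, and the higher 3ʹSS ratio in 4 of 9, against 61.1%. In CB-RNA the counts were 4 and 5 of 9 (57.6% and 56.2% of all genes), in RNAf 7 and 7 (56.1% and 53.0%), in RNAe+RNAf 2 and 4 (52.9% and 51.5%), and in mRNA 8 and 8 (57.9% and 57.1%). FBPase was the exception in mRNA, with a 5ʹSS ratio of 0.00867 at its first and 0.000561 at its last intron. GAPB had the higher value at its last intron in every group, for example 0.0875 at intron 1 and 0.254 at intron 8 in CB-RNA. TKL1 had the lower 5ʹSS ratio at its last intron in CB-RNA, 0.188 at intron 6 and 0.5 at intron 1, and in RNAe, 0.177 and 0.486. With 9 genes these counts are a description.

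The ends of the introns were then read. Of the 48, 46 begin with GT and end with AG, and 2 begin with GC and end with AG, where 0.96% of 121020 introns of at least 40 bp have GC and AG. Both GC introns are the last intron of an aldolase gene. FBA1 intron 5 and FBA2 intron 6 lie at the matching place of the aligned proteins, after codon 307 in FBA1 and 306 in FBA2. RefSeq has transcripts without these exact introns: FBA1 intron 5 is retained in 1 of 3 transcripts, and FBA2 intron 6 begins 4 bp further in, with GT, in the other of 2. FBA1 intron 5 had a 5ʹSS ratio of 0.179 (0.15 to 0.213) in CB-RNA, 0.0767 (0.0654 to 0.0901) in RNAf, 0.0945 (0.0655 to 0.136) in RNAe, 0.24 (0.192 to 0.301) in RNAe+RNAf and 0.0146 (0.0137 to 0.0155) in mRNA. FBA2 intron 6 had 0.0593 (0.0478 to 0.0734) in CB-RNA, 0.0235 (0.0195 to 0.0282) in RNAf, 0.046 (0.033 to 0.0642) in RNAe, 0.0922 (0.0732 to 0.116) in RNAe+RNAf and 0.00409 (0.00371 to 0.00451) in mRNA. With the same 9 bases at the 5ʹSS, the FBA1 intron was higher in all 5 groups. In mRNA the FBA1 intron was second only to GAPB intron 8 among the 48. Over all introns, the median 5ʹSS ratio of GC and GT introns was 0.0769 and 0.045 in RNAf, and 0.0152 and 0.00626 in mRNA.

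The fit of each splice site to the base frequencies of all introns was scored. The 5ʹ splice site was scored over the last 3 exon and first 6 intron bases. The 3ʹ splice site was scored over a longer stretch, the end of the intron with the first base of the next exon. The median score of the 5ʹ splice sites was 7.28 in the Calvin cycle genes and 7.09 over all introns, and that of the 3ʹ splice sites 7.95 and 8.06. The introns shown above did not order by the score of the 5ʹ splice site. FBPase intron 1, high in RNAf, lay at percentile 4.16 of all introns, but TKL1 intron 2 lay at 30.3 and SBPase intron 6 at 44.6. Of the low ones, GAPB intron 1 lay at 92.8, GAPB intron 4 at 33.6 and PGK1 intron 2 at 56.9. Across the 48 introns, Spearman's rho between the 5ʹ splice site score and the 5ʹSS ratio was -0.37 in RNAf and -0.39 in mRNA, and -0.25 in CB-RNA. The branch point letters CTAAC, with A or G allowed as the middle base and C or T as the last, were searched on the gene's strand 11 to 60 bases before the intron end and were found in 7 of the 48 introns and in 27.1% of all introns. The base content was that of other introns, with a median of 40.6% T against 40.7%.

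Most introns had the higher ratio at their 3ʹ end in RNAf. Of the 42 shorter than 150 bp, 34 had the higher ratio at the 3ʹSS, with a median of 1.23-fold, against 60.2% of all such introns and 1.08-fold. All 6 introns of at least 150 bp had the higher ratio at the 3ʹSS in RNAf, with a median of 1.78-fold, against 63.6% of all introns of that length and 1.21-fold. In CB-RNA 3 of the 6 were higher at the 3ʹSS, in RNAe 4, in RNAe+RNAf 4 and in mRNA 3. FBA1 intron 2 (194 bp) had 3 intronic and 53 exonic reads at the 5ʹSS in RNAe (ratio 0.0566, 0.0187 to 0.171) and 27 and 77 at the 3ʹSS (ratio 0.351, 0.227 to 0.542). PRK intron 1 (268 bp), the longest of the 48, had 0.0751 (0.0431 to 0.131) at the 5ʹSS and 0.215 (0.159 to 0.29) at the 3ʹSS in RNAe.

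Introns at matching places of related genes were set side by side. The FBA1 and FBA2 proteins, of 399 and 398 residues in RefSeq, are 90.9% identical and share the places of 5 introns. Intron 2 was the furthest apart of these in RNAf, with a 5ʹSS ratio in RNAf of 0.0775 (0.0639 to 0.0941) in FBA1 and 0.0102 (0.00668 to 0.0157) in FBA2, and in mRNA of 0.00818 in FBA1 and 0.000949 in FBA2. It is 194 bp long in FBA1 and 92 bp in FBA2. At intron 3 the pair was close in RNAf, with 0.00895 (0.00522 to 0.0153) in FBA1 and 0.00981 (0.00668 to 0.0144) in FBA2. GAPA and GAPB are 73.7% identical and share the place of 1 intron, GAPA intron 4 and GAPB intron 6. In RNAf it had 0.0358 (0.031 to 0.0414) in GAPA and 0.0728 (0.0616 to 0.0859) in GAPB, whereas in RNAe it had 0.0862 (0.062 to 0.12) in GAPA and 0.0861 (0.0671 to 0.11) in GAPB.

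The exonic reads gave the share of the libraries that the genes took up. Per 1000000 exonic reads counted beside splice sites, the 9 genes together had 1700 in CB-RNA, 2070 in RNAf, 1530 in RNAe, 3140 in RNAe+RNAf and 17600 in mRNA. The median gene was thus at 0.112 of its mRNA level in CB-RNA (log2 -3.16, against 0.32 over 13481 genes) and at 0.128 in RNAf (log2 -2.97, against 0.14 over 15025 genes). FBA1 was lowest in CB-RNA, at 0.0378 of its mRNA level, and TKL1 highest, at 0.206. Intronic reads ran the other way, with a median of 4.02-fold more in CB-RNA than in mRNA, although this was less than over all genes (log2 2.01 against 4.28). In RNAe over RNAe+RNAf, the median was 0.602 for exonic reads (log2 -0.73 against -0.06 over 11514 genes) and 0.297 for intronic reads (log2 -1.75 against 0.13). CB-RNA, which keeps polyadenylated RNA, was also below RNAe+RNAf for these genes, with a median of 0.66 for exonic reads (log2 -0.60 against -0.15 over 11706 genes) and 0.552 for intronic reads (log2 -0.86 against -0.08). RNAe+RNAf thus stood above both other preparations in the reads of the 9 genes.

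The exonic reads were unevenly spread along most of the genes in the chromatin-bound groups other than RNAf. The pattern was noticed after the values were seen. In PGK1, the exonic reads of both sites ran from 86 at intron 3 to 1381 at intron 5 in CB-RNA, a 16.1-fold range. The same introns were the lowest and highest of PGK1 in RNAe (49 and 599) and in RNAe+RNAf (97 and 1464), while in mRNA they had 18968 and 34745 reads, a 1.83-fold range. GAPB peaked at introns 5 to 7, and intron 6 had 3614 reads in CB-RNA against 521 at intron 2. In RNAf GAPB peaked at its last intron instead, with 6924 reads. The peak was at intron 5 in SBPase and FBA1 and at the last intron, intron 6, in FBA2 and TKL1. FBPase and PRK were nearly even, with ranges of 1.5-fold and 1.7-fold in CB-RNA.

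Over the 9 genes, the median of the highest over the lowest intron was 5.38 in CB-RNA, 2.44 in RNAf, 5.14 in RNAe, 6.41 in RNAe+RNAf and 1.38 in mRNA. Over all 8433 genes compared it was 3.65, 3.02, 4.06, 4.29 and 1.57 in the same order of groups. The profiles of the 3 groups of unselected or elongating RNA were alike. Across the 48 introns, with each count divided by the mean of its gene, Spearman's rho was 0.94 between CB-RNA and RNAe, 0.97 between CB-RNA and RNAe+RNAf and 0.95 between RNAe and RNAe+RNAf, but 0.51 between CB-RNA and mRNA and 0.70 between CB-RNA and RNAf. The ratios of the summed reads give the introns at these peaks the most weight. Where each intron counted once, the median log2 fold of RNAe over RNAe+RNAf at the 5ʹSS was -1.33 for FBA1, -1.11 for FBA2, -1.04 for GAPA and -0.94 for GAPB. For TKL1 it was -0.27 at the 5ʹSS and -0.12 at the 3ʹSS, against 0.14 and 0.08 with summed reads, so the direction for TKL1 turned. For PGK1 at the 5ʹSS it was 0.18, against -0.08 with summed reads.

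**Figure D3:**
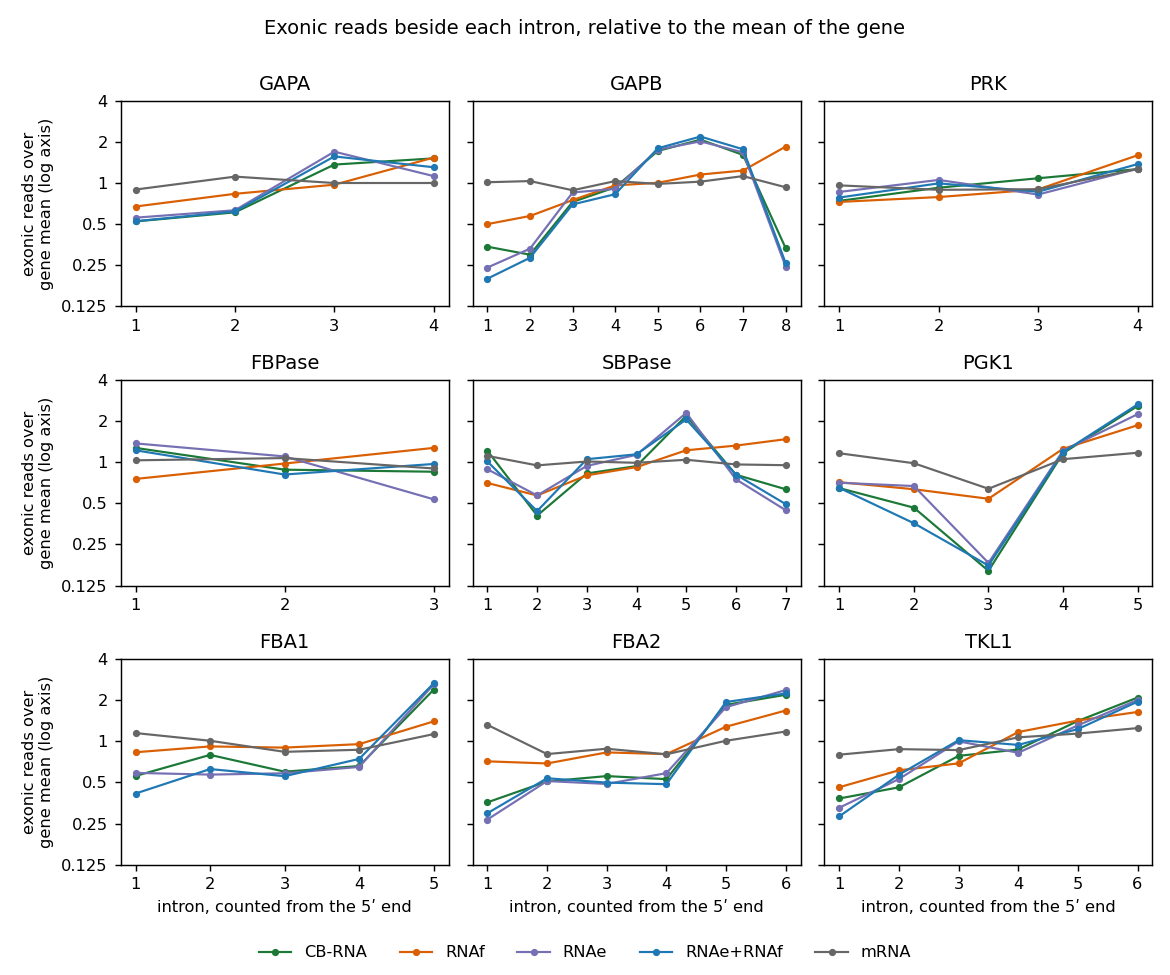
Exonic reads beside each intron (both splice sites) divided by the mean over the introns of the gene (log2 axis), by intron number from the 5ʹ end, for each of the 9 genes and 5 groups. PGK1 rises to 2.57 at intron 5 in CB-RNA, against 1.17 in mRNA, and GAPB peaks at intron 6 in CB-RNA, RNAe and RNAe+RNAf but at intron 8 in RNAf.

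The genes whose ratios over the 5 groups and both sites lay closest to the median of the 9 were found among 8506 genes with at least 100 exonic reads at each site in every group. The closest was FUS12 (AT2G26990), with a root mean square difference of 0.238 on the log2 scale, followed by AT5G66240 (0.246), CAT2 (AT4G35090, 0.258), EMB3012 (AT5G40480, 0.276) and AT5G07360 (0.282). CAT2, a catalase, had 0.172 in CB-RNA, 0.0518 in RNAf, 0.108 in RNAe, 0.134 in RNAe+RNAf and 0.00384 in mRNA at the 5ʹSS. Of the 9 genes themselves, GAPA (0.375) and TKL1 (0.383) were closest to their own median and FBPase (0.914) was furthest. Among the other genes of the cycle, GAPA2 differed from GAPA, with 5ʹSS ratios of 0.518 in CB-RNA, 0.172 in RNAf, 0.469 in RNAe, 0.427 in RNAe+RNAf and 0.0104 in mRNA, each above the value of GAPA. TKL2 likewise had a higher ratio than TKL1 in RNAf, 0.172. Of the other genes of the cycle on the list, 7 of 11 could be followed, and RPI3 and the CP12 genes were not analysed here.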

How the data were processed

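The samples were 11 libraries in 5 groups, assigned from their titles. According to the submitters' processing notes and the paper's methods, the authors used Trimmomatic 0.39 for trimming, HISAT2 2.2.0 for mapping to TAIR10, SAMtools 1.3.1 and StringTie, and kept reads with a single alignment. The authors' deposited tables give, for each intron, read counts (exonic and intronic) beside both splice sites and their ratio, 1 set per group. The width of the windows and the way libraries were joined are not given in the sources used here.

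From the deposited counts, ratios were recomputed (largest deviation from the deposited ratio 5e-05). Folds were taken with 0.5 reads added, over all introns that had 10 or more exonic reads in each group. Fisher's exact test was two-sided, with Benjamini-Hochberg adjustment at 0.05. Intervals were 95% Wilson intervals. The scripts were tested on simulated data. The genes, lists and tests were chosen with earlier results of these data known. Named introns were the highest and lowest of each gene by the mean of both ratios in RNAf, and the 3 highest and 3 lowest of all 48 in each group. Other introns named, such as those called between groups or at paralogous places, were chosen after their values were seen. RNAe against CB-RNA and leaving out the intron of most reads were chosen after seeing the data. Intron sequences and proteins came from RefSeq (TAIR10.1), in which all 9 loci were found. The tables hold 74 introns with a start after their end, none of them in the 9 genes. Versions were scipy 1.17.1, numpy 2.4.6, pandas 2.3.3, Biopython 1.88 and matplotlib 3.10.9 under Python 3.11.15.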

Additional observations from a re-analysis of the deposited data

How the results depend on the processing

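Limits: the tables give 1 pooled set of values per group, so the spread between libraries is unknown and every test compares pooled reads. Depth limits RNAe and RNAe+RNAf most, where the 48 introns had a median of 164 and 233 exonic reads at the 5ʹSS. No paired analysis was possible because no column per replicate exists, and for the same reason no library was left out and no replicate block was fitted. The counts below are splice sites out of 96.

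Both comparisons with mRNA, and the lower calls of RNAf against RNAe, stayed within 1.5 times under every threshold tried. RNAf against RNAe gave 1 higher call, and 0 with at least 50 exonic reads, 2 with a 1.5-fold threshold and 0 by Fisher's exact test. RNAe against RNAe+RNAf gave 3 higher and 25 lower calls. With 1.5-fold these were 7 and 48, with 3-fold 1 and 6, and Fisher's exact test gave 12 lower. CB-RNA against RNAe+RNAf gave 6 higher and 7 lower calls, against 19 and 15 with 1.5-fold and 1 and 3 with 3-fold. Its median log2 fold at the 3ʹSS, 0.07, reversed to -0.08 without TKL1. Without 1 gene at a time, the median of RNAe against RNAe+RNAf was between -0.80 and -0.40 at the 5ʹSS and between -0.64 and -0.52 at the 3ʹSS. With CB-RNA in place of RNAe+RNAf, chosen after seeing the data, 21 sites were lower and 2 higher. Without the intron of most reads in each gene, also chosen after seeing the data, the medians were -0.58 and -0.57.

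The median of the 9 genes in RNAf moved, at the 5ʹSS, to 0.0399 with the mean and 0.0343 with the median of a gene's ratios (0.0504 from summed reads), and at the 3ʹSS to 0.0424 with the median (0.0547). In RNAe+RNAf the mean gave 0.208 (0.181), and in mRNA the median gave 0.00287 (0.00362), both at the 5ʹSS. Of the 90 single values, 25 with the mean and 49 with the median lay outside the counting interval. With median 5ʹSS reads, the level moved to -3.22 for CB-RNA over mRNA, -3.13 for RNAf over mRNA, 0.63 for RNAf over RNAe and -0.89 for RNAe over RNAe+RNAf (log2).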
